A study of Mus musculus with 6 samples.

Results

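The cytoplasmic translation initiation and elongation factors were taken from the count table as all genes whose symbol begins with Eif or Eef followed by a digit, leaving out symbols that contain -ps. The rule used names only and no measured value. It gave 70 of 27179 genes, and it takes in subunits, paralogs and enzymes that modify the factors, such as the eIF2 alpha kinases (Eif2ak1 to Eif2ak4) and the methyltransferases of eEF1A. It also takes in Eif2c5, which RefSeq lists as a long noncoding RNA. The libraries were polyadenylated RNA from C2C12, an established mouse myoblast line, in 2 groups of 3. The myoblast group was kept below confluence in high-glucose medium with 10% fetal bovine serum and 4 mM glutamine. The myotube group spent 3 days at 100% confluence, followed by 5 days in differentiation medium with 2% horse serum, 4 mM glutamine and an insulin, transferrin, selenium and ethanolamine supplement. Serum type and amount, insulin, confluence and time in culture therefore all differ between the groups and cannot be told apart from differentiation itself. C2C12 is a single line, and the labels do not say whether the 3 samples of a group came from separate cultures, so p-values measure the spread between these samples only.

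Translation starts when eIF2 brings the initiator tRNA to the small ribosomal subunit, which also binds eIF1, eIF1A, eIF5 and the large eIF3 complex. The eIF4 factors bind the mRNA cap and unwind the leader, the 4E-binding proteins compete with eIF4G for eIF4E, and eIF5B joins the large subunit. eEF1A then delivers aminoacyl-tRNAs, eEF2 moves the ribosome along and eIF5A relieves stalls. In muscle, eEF1A is known for an exchange of paralogs: eEF1A1 is widespread, while adult skeletal muscle, heart and neurons rely on eEF1A2.

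Short coding sequences are given for 2 paralog pairs whose ratio of transcripts within a library did not overlap between the groups. eIF5A and eIF5A2 are the proteins known to carry hypusine, a lysine modified after translation. The coding stretches around that lysine, codon 50 in both genes, are given 5′ to 3′ with the lysine codon in capitals. They were read from GENCODE M21 transcripts of GRCm38, and each spans an intron, between exons 3 and 4 of 7 in Eif5a and exons 2 and 3 of 5 in Eif5a2.
Eif5a (chr11:69918019-69919183, minus strand): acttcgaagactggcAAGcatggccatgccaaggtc
Eif5a2 (chr3:28782184-28782730, plus strand): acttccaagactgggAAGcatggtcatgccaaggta
The 4E-binding proteins dock on eIF4E through a short motif. A coding stretch of 6 residues from this motif is given, all in capitals, and need not cover the whole motif. It lies in exon 2 of 3 in both genes, at codons 53 to 58 of Eif4ebp1 and 54 to 59 of Eif4ebp2.
Eif4ebp1 (chr8:27273337-27273354, plus strand): TATGACCGGAAATTTCTG
Eif4ebp2 (chr10:61435072-61435089, minus strand): TATGACCGAAAGTTTCTG
The lysine codon is AAG in both eIF5A genes. The eIF5A stretches differ at 4 of 36 bases and the docking stretches at 2 of 18. Both eIF5A stretches were located by the same peptide, so their encoded residues are alike by choice. The docking stretches were located by a shared pattern that fixes most of their residues, and the remaining residues are also the same. Identity over whole coding sequences was taken as a percentage of the longer sequence. Eif5a and Eif5a2 share 72.3% of bases and 82.5% of residues, and Eif4ebp1 and Eif4ebp2 share 63.3% and 60%. Eef1a1 and Eef1a2 share 79.9% of bases and 92.2% of residues, over proteins of 462 and 463 residues.

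Promoter windows, from 250 bases before to 50 after each RefSeq start on GRCm38.p6, were searched for CACGTG, the E-box hexamer bound by factors such as Myc and Max. The letters read the same on both strands. The windows below are only some of those found. They belong to members that were lower in myotubes, and in the last line to Eif1b, which was higher. Not printed are windows of the higher members Eef2, Eif3a and Eif3f, of the lower Eef1aknmt, and of Eif4e and Eif3k, which were not called. The hexamer is in capitals.
Eif5a2 (chr3:28781115-28781160, plus strand, hexamer starting 142 bases upstream): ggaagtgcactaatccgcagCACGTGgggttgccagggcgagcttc
Eif5a (chr11:69921435-69921480, minus strand, hexamer starting 74 bases upstream): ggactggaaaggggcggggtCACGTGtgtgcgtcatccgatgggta
Eif4a1 (chr11:69672587-69672632, minus strand, hexamer starting 189 bases upstream): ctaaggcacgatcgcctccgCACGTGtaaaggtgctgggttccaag
Eif4g1 (chr16:20672653-20672698, plus strand, hexamer starting 54 bases upstream): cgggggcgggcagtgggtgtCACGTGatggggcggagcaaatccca
Eif4h (chr5:134639480-134639525, minus strand, hexamer starting 96 bases upstream): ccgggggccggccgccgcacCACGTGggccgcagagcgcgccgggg
Eef2k (chr7:120842780-120842825, plus strand, hexamer starting 31 bases upstream): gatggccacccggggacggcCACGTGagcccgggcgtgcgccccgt
Eif1b (chr9:120492562-120492607, plus strand, hexamer starting 24 bases upstream): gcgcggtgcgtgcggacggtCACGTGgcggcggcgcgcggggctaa
The counts of members with and without the hexamer are given after the members' values.

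Library totals ran from 10076945 to 11723881 counts in myoblasts and from 7370169 to 8339589 in myotubes. Levels below are CPM (counts scaled to a common library size) after TMM scaling, and changes are log2 of myotubes over myoblasts with a standard error (SE). All 7 myotube markers were higher in myotubes, from Myog at 5.63 to Actn2 at 9.84, and all 5 proliferation markers were lower (median -4.03). Of 6 reserve or satellite cell markers, 4 were higher and 1 lower, and their summed level was 537 to 560 CPM in myoblasts and 733 to 788 CPM in myotubes. Those higher were Cd34, Heyl, Notch3 and Spry1, while Sdc4 was lower (-1.36) and Pax7 was not called (0.10). Of 7 fibroblast or adipogenic markers, 1 rose and 3 fell, with Adipoq at 0 in every library. In bulk RNA a change in the share of such cells and a change in RNA per cell cannot be told apart, and the part of these cells in the results below was not tested.

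Of the 70 genes, 65 had enough counts to be tested, and 54 of these (83.1%) passed edgeR's quasi-likelihood test at an adjusted p of 0.05. The myoblasts and myotubes differed so widely that 79.5% of the 12800 tested genes passed, so a call alone set these genes little apart from the rest. Of the members, 31 were higher in myotubes (47.7%, against 40.2% of all genes) and 23 were lower (35.4%, against 39.2%). The library values of the groups did not overlap for 31 members that were higher (40.6% of all genes) and 24 that were lower (39.9% of all genes). Large changes were few. In a test against a 2-fold change, 3 members were higher (4.62%, against 12.4% of all genes), namely Eef1a2, Eif4a2 and Eif4ebp1, and 1 was lower, Eif5a2 (1.54%, against 9.2%). Of these, Eef1a2 passed the count filter only through the myotube libraries, so its direction was set in advance. The median change of the tested members was 0.09, beside 0.02 for all tested genes.

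Many of the rises were small and depended on scaling. With total counts in place of TMM, which moved the median of all genes to -0.13, 16 members were higher and 27 lower. No member was called in opposite directions under the 2 scalings. Across all 14 refits, 37 of the 54 called members kept their call and direction, 16 of them higher and 21 lower. The members together took 1.88% ± 0.0126 (SD, n = 3) of counts in myoblasts and 1.77% ± 0.0181 (SD, n = 3) in myotubes. Under TMM scaling their sum went the other way, from 17858 ± 137 to 18588 ± 187 CPM (SD, n = 3), so its direction depends on scaling.

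**Figure D1:**
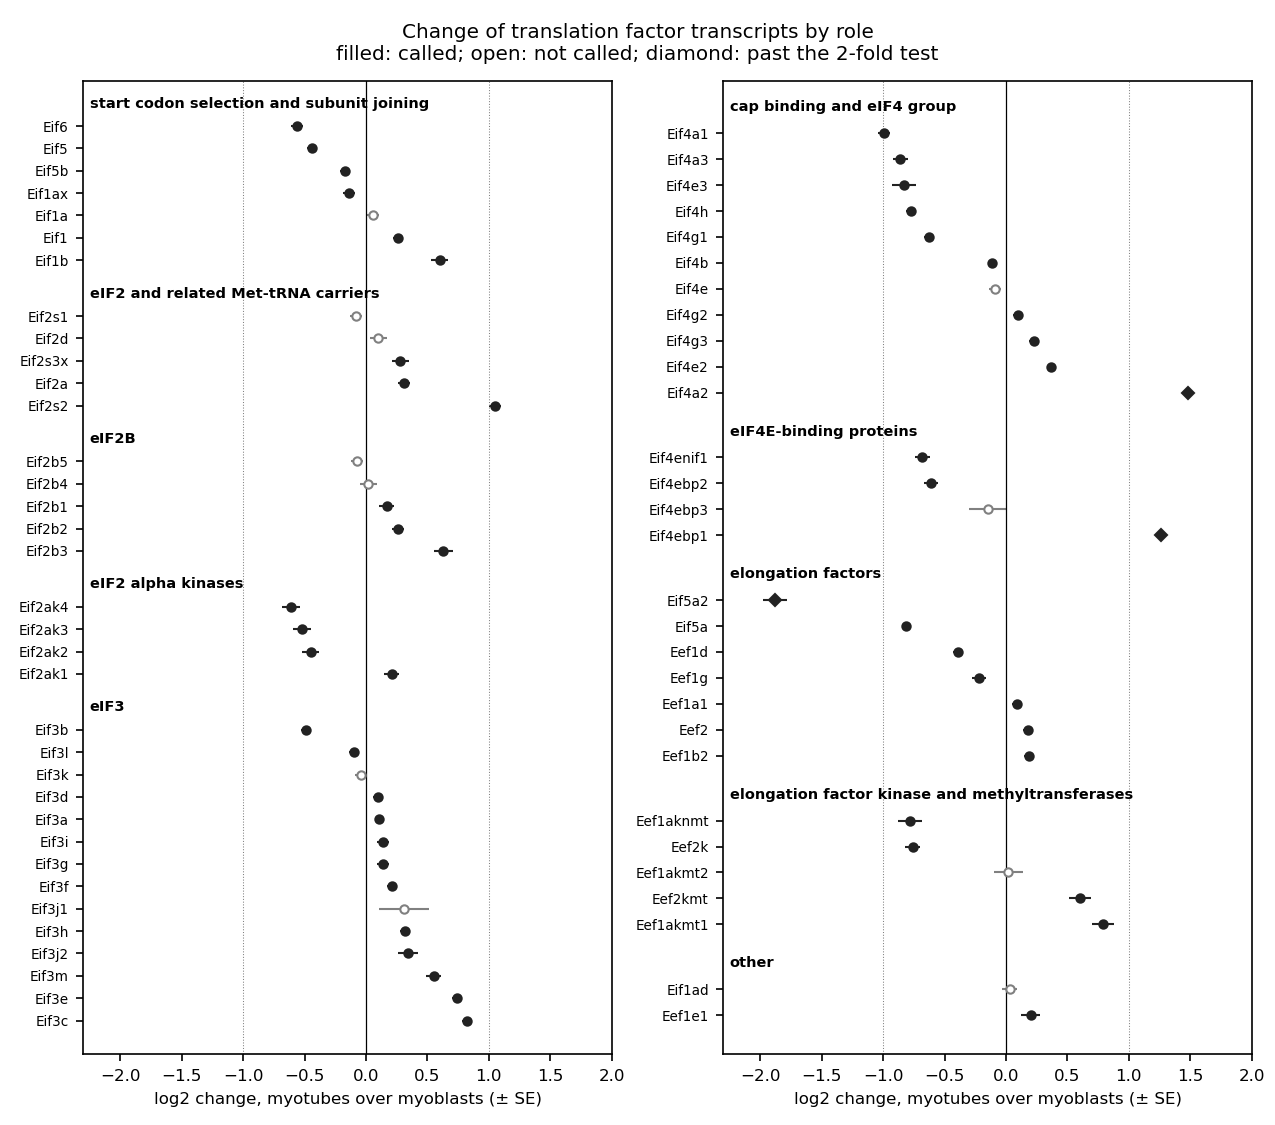
Log2 change of myotubes over myoblasts with its SE for 64 tested members, grouped by role; Eef1a2 is left out because it had 0 counts in myoblasts. Filled points passed the test, open points did not, and diamonds passed the test against a 2-fold change; dotted lines mark a change of 1 in either direction. Most points lie within the dotted lines, with Eif4a2, Eif4ebp1 and, just past the line, Eif2s2 (1.05) to the right and Eif5a2 to the left.

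Eef1a1 (chr9:78478453-78481724), the widespread eEF1A gene, remained by far the main source of eEF1A transcripts in myotubes. It had 33326, 38156 and 32363 counts in the myoblast libraries and 22807, 23844 and 25825 in the myotube libraries, or 3045 ± 53.6 and 3244 ± 18.4 CPM (SD, n = 3). The groups did not overlap, but they lay close together, with a log2 change of 0.09 (SE 0.04, adjusted p = 0.02). This call was lost without a count filter (adjusted p = 0.291) and without myoblast replicate 1 (adjusted p = 0.139), and the sign turned with total counts (-0.05). Eef1a1 ranked 12 of 27179 genes by CPM in myoblasts and 13 in myotubes. Its count is uncertain, since 60.6% of its transcript's 50-base windows occur also in transcripts of other genes, most often the processed copy Gm13456, although none occurs in Eef1a2.

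Eef1a2 (chr2:181141758-181157015), the paralog of mature muscle and neurons, had 0 counts in each myoblast library and 37, 19 and 37 in the myotube libraries. In CPM the myotube values were 5.27, 2.57 and 4.67, a mean of 4.17 ± 1.42 (SD, n = 3). All 3 myotube libraries stood above all 3 myoblast libraries. Against 3 counts over the myoblast group (0.088 CPM), the myotube mean was at least 47.4-fold higher. The edgeR log2 change was 8.30 (SE 0.72, adjusted p = 2.70e-10, and 8.81e-09 against a 2-fold change), a size that rests on 0 counts in myoblasts. Eef1a2 passed the count filter only through the myotube libraries, where it is high. The level was still low, as 10977 genes had a higher mean in myotubes.

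The share of Eef1a2 in the summed counts of both genes was computed for each library. It was 0 of 103845 counts over the myoblast libraries, which allows a share of up to 0.00289% by the limit of 3 counts and 0.00355% by the exact 95% interval. In the myotube libraries it was 0.162, 0.0796 and 0.143% (mean 0.128% ± 0.0431, SD, n = 3), with exact 95% binomial intervals of 0.114 to 0.223, 0.0479 to 0.124 and 0.101 to 0.197% that cover counting error only. Eef1a1 counts thus outnumbered Eef1a2 counts by 616, 1255 and 698 to 1 in the myotube libraries. By the limit of 3 counts, the ratio over the myoblast group was at least 34615 to 1, and the exact interval allows a lower ratio. Per transcript length, the group ratios were 905 in myotubes and, by the same limit of 3 counts, at least 40211 in myoblasts. The shares did not overlap between groups, with p = 0.1 in an exact two-sided permutation test, the lowest value open to 3 against 3 libraries. Eef1a2 is also a neuronal gene. Of the 5 neuronal markers, Snap25 was at 0 in every library and Rbfox3 and Syt1 were at 0 in every myotube library, while Map2 rose (1.07) and Tubb3 fell (-2.78).

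**Figure D2:**
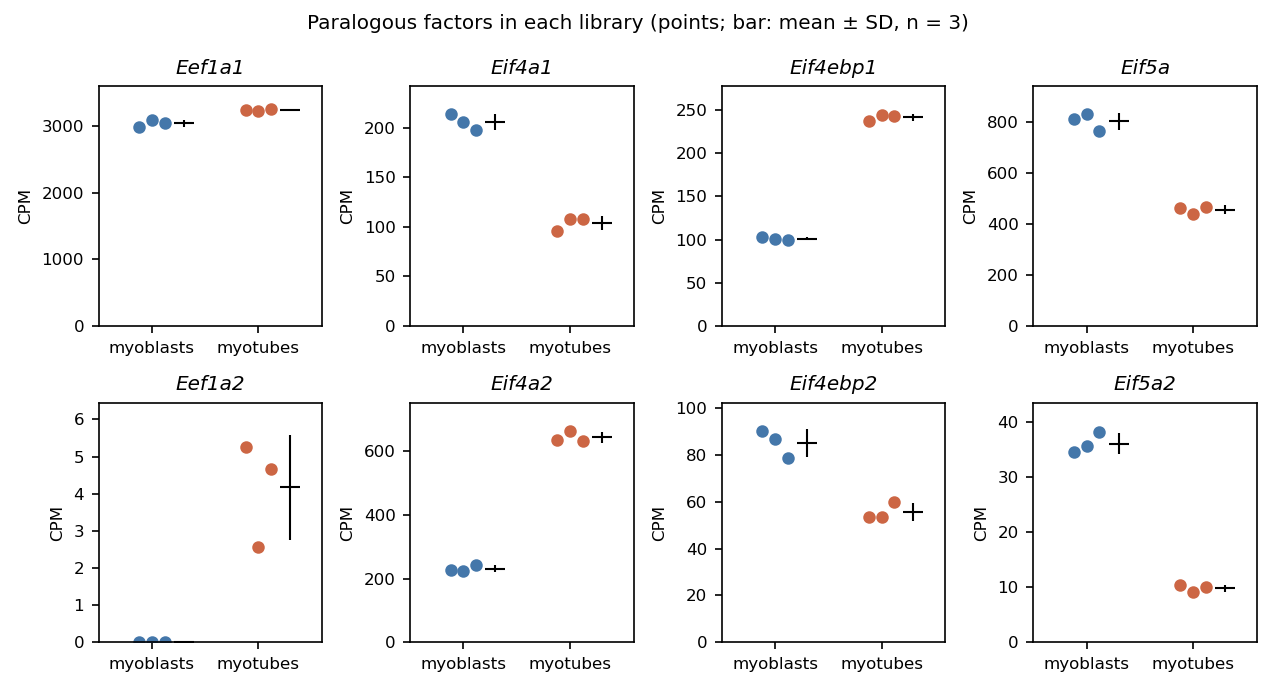
CPM of 4 paralog pairs in each library, with points for libraries and a bar for the mean ± SD of 3; each panel has its own linear axis from 0. Eef1a1 stays between 2991 and 3258 CPM while Eef1a2 appears at 2.57 to 5.27 CPM in myotubes, Eif4a1 and Eif4a2 move in opposite directions, as do Eif4ebp2 and Eif4ebp1, and both eIF5A genes are lower in myotubes.

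The other elongation factors moved unevenly. Eef2 (chr10:81176631-81182509), the translocase, had 3352, 3481 and 3363 CPM in myoblasts and 3882, 3819 and 3884 CPM in myotubes (log2 change 0.18, SE 0.04, adjusted p = 4.08e-05). It ranked 10 by CPM in both groups, and every myotube library was above every myoblast library. Its call was lost with total counts (0.04, adjusted p = 0.322). The eEF1B subunits, which recharge eEF1A with GTP, split: Eef1b2 rose from 428 ± 3.84 to 489 ± 2.65 CPM (0.19), while Eef1d fell from 189 ± 7.01 to 144 ± 2.15 CPM (-0.39) and Eef1g from 65.2 ± 1.84 to 55.9 ± 1.35 CPM (-0.22; SD, n = 3 each). Of these, Eef1g shares 64.3% of its windows with copies, and the Eef1b2 call was lost with total counts (0.05, adjusted p = 0.243).

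Both eIF5A genes fell. Eif5a (chr11:69916712-69921958) had 812, 831 and 767 CPM in myoblasts and 464, 438 and 468 CPM in myotubes, a log2 change of -0.81 (SE 0.04, adjusted p = 1.10e-15). Eif5a2 (chr3:28781032-28798846) had 34.5, 35.6 and 38.1 CPM in myoblasts and 10.4, 9.06 and 9.97 CPM in myotubes. All myotube libraries were lower for both genes, and the lowest myoblast value of Eif5a2 was more than 3 times its highest myotube value. The log2 change of Eif5a2 was -1.88 (SE 0.10, adjusted p = 3.78e-15, and 6.22e-09 against a 2-fold change), which left 27.2% of the myoblast level and was the largest fall among the members. No window of Eif5a2 was found in another gene's transcript. Per kb of transcript, the myoblast and myotube means of Eif5a were 559 and 318 CPM, and those of Eif5a2 7.17 and 1.95 CPM.

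Among the enzymes that modify elongation factors, Eef2k, the kinase that inhibits eEF2, fell from 70.6, 69 and 67 CPM to 40.3, 39.6 and 41.9 CPM (-0.76, SE 0.06, adjusted p = 1.85e-11). Eef1akmt1, an eEF1A lysine methyltransferase, rose from 23.9, 22.6 and 27.9 CPM to 44.6, 45.3 and 38.7 CPM (0.79, SE 0.09, adjusted p = 5.36e-09). Eef1aknmt, which methylates both the N terminus and a lysine of eEF1A, fell from 24.4, 28.8 and 27.8 CPM to 15.1, 17.8 and 14.4 CPM (-0.78, SE 0.10, adjusted p = 1.67e-07). In each of these 3 genes the groups did not overlap. Eef2kmt, the eEF2 lysine methyltransferase, rose by 0.60 (adjusted p = 1.85e-06), although a gene on the opposite strand overlaps 21% of its exonic bases and it is not known here whether reads were counted by strand. Eef1akmt2 was not called (0.02, adjusted p = 0.86), and Eef1akmt3, at 0.505 CPM or less in every library, was not tested.

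The cap-binding and eIF4 group had 4 higher and 6 lower of 11 tested members (36.4% higher, beside 40.2% of all tested genes). The paralogs of eIF4A, the RNA helicase that unwinds mRNA leaders, moved in opposite directions. Eif4a1 (chr11:69666936-69672423) had 214, 206 and 198 CPM in myoblasts and 95.6, 108 and 108 CPM in myotubes (-0.99, SE 0.05, adjusted p = 1.68e-15). Eif4a2 (chr16:23107468-23114132) had 227, 223 and 243 CPM in myoblasts and 635, 661 and 630 CPM in myotubes. The paralogs began at like counts and ended far apart, with no overlap between groups in either gene. The rise of Eif4a2 was 1.48 (SE 0.04, adjusted p = 4.80e-21, and 1.43e-11 against a 2-fold change). Per kb of transcript, Eif4a1 was the higher in myoblasts (116 against 85.3 CPM per kb) and Eif4a2 in myotubes (237 against 58.6 CPM per kb). The level of Eif4a1 is uncertain, since 65.3% of its windows occur in copies, mostly Eif4a-ps4, against 12.7% for Eif4a2.

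Other members that bind or unwind the capped end fell as well. Eif4g1, the scaffold that joins eIF4E to eIF4A, went from 885 ± 13.9 to 570 ± 7.37 CPM (-0.63, adjusted p = 1.92e-14; SD, n = 3). Eif4h, a cofactor of the eIF4A helicase, went from 445 ± 10.1 to 261 ± 7.38 CPM (-0.77, adjusted p = 1.92e-15; SD, n = 3). Eif4a3, which serves the exon junction complex rather than initiation, fell by 0.86, and Eif4e3, a divergent cap-binding protein, fell by 0.83. Eif4b, the other helicase cofactor, fell by 0.11. It was the most abundant of the group per kb in myoblasts (207 CPM per kb), while in myotubes Eif4a2 (237) and Eif4g2 (193) were above it (191 CPM per kb). The cap-binding protein Eif4e itself was not called, with 83.3 ± 0.338 CPM in myoblasts and 78.3 ± 1.13 CPM in myotubes (-0.09, adjusted p = 0.119; SD, n = 3), though its libraries did not overlap. With total counts (-0.23, adjusted p = 1.90e-04) and without a filter (-0.13, adjusted p = 0.0316) it was called lower. Rises were smaller apart from Eif4a2: Eif4e2, the 4EHP repressor of cap-dependent initiation, rose by 0.37, the scaffold Eif4g3 by 0.23, and Eif4g2, a scaffold that lacks eIF4E binding, by 0.10. With total counts the call of Eif4g3 was lost (0.09, adjusted p = 0.0573) and Eif4g2 turned to -0.04. Eif4g2 also lost its call without a filter (0.06, adjusted p = 0.175), without myoblast replicate 2 (adjusted p = 0.0513) and without myotube replicate 3 (adjusted p = 0.0518). Eif4e1b, with 0 counts in 4 libraries, was not tested.

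The 4E-binding proteins, which block cap-dependent initiation until mTORC1 phosphorylates them, moved in opposite directions. Eif4ebp1 (chr8:27260327-27275656) had 103, 101 and 98.9 CPM in myoblasts and 237, 244 and 243 CPM in myotubes (1.26, SE 0.04, adjusted p = 2.84e-19, and 1.60e-06 against a 2-fold change). Eif4ebp2 (chr10:61428491-61452790) had 89.9, 86.8 and 78.5 CPM in myoblasts and 53.3, 53.4 and 59.8 CPM in myotubes (-0.61, SE 0.06, adjusted p = 2.49e-09). Both genes had groups that did not overlap, in opposite directions. Eif4ebp3 stood at 8.8 ± 0.0382 and 7.96 ± 1.38 CPM (SD, n = 3) and was not called (-0.15, adjusted p = 0.346), and 65.5% of its windows lie in an overlapping transcript. Eif4enif1, the transporter that carries eIF4E into the nucleus, fell by 0.68 (adjusted p = 5.13e-11).

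In ratios within a library, library scaling cancels. They are ratios of CPM, so their level still depends on transcript length, and copied windows can affect them. Eif4a1 to Eif4a2 was 0.943, 0.926 and 0.816 in myoblasts and 0.15, 0.164 and 0.172 in myotubes, a difference of -2.46 in log2 ratio. Eif4ebp1 to Eif4ebp2 was 1.15, 1.16 and 1.26 in myoblasts and 4.45, 4.56 and 4.06 in myotubes (1.87). Eif5a to Eif5a2 was 23.6, 23.4 and 20.1 in myoblasts and 44.6, 48.3 and 47 in myotubes (1.06), so a larger share of the summed eIF5A transcripts came from Eif5a. In each of these pairs the ratio's groups did not overlap.
Smaller differences in log2 ratio were found for Eif4g1 to Eif4g3 (-0.87), Eif4e to Eif4e3 (0.74), Eif4e to Eif4e2 (-0.45), Eif1 to Eif1b (-0.34) and Eif1a to Eif1ax (0.19), also without overlap. Eif3j1 to Eif3j2, near-identical genes with 99.2% of coding bases shared, differed by -0.04 and overlapped. Over the 10 pairs tested, including Eef1a1 with Eef1a2, the exact two-sided permutation test gave p = 0.1 for 9 (adjusted p = 0.111) and p = 1 for Eif3j1 with Eif3j2. No pair can reach 0.05 with 3 against 3 libraries. The X-linked and Y-linked eIF2 gamma genes gave no ratio, as Eif2s3y was at 0 in every library.

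**Figure D3:**
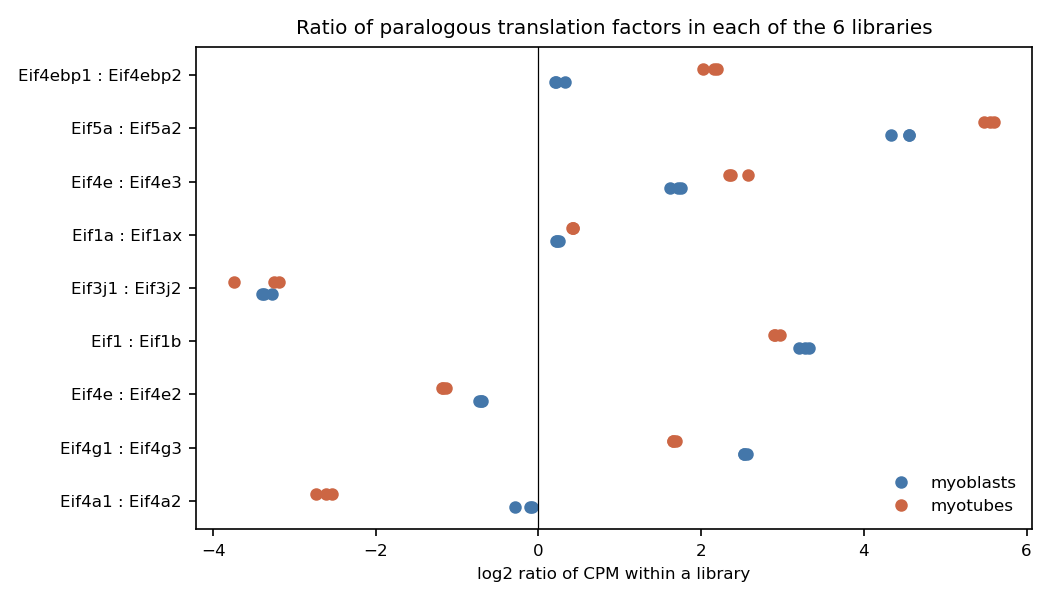
Log2 ratio of CPM of 9 paralog pairs within each of the 6 libraries, 1 point a library; the vertical line marks equal CPM. The myoblast and myotube points separate in all pairs shown other than Eif3j1 to Eif3j2, most widely for Eif4a1 to Eif4a2 and Eif4ebp1 to Eif4ebp2.

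The eIF3 complex, the large scaffold on the small ribosomal subunit, had 10 higher and 2 lower of 14 tested members (71.4% and 14.3%, beside 40.2% and 39.2% of all tested genes), with a median change of 0.18. With total counts, 4 of these rises turned sign. Its summed level, under TMM scaling, went from 2805 ± 14.6 to 3269 ± 55.2 CPM (SD, n = 3). The subunits did not move together. Eif3c had 344, 354 and 334 CPM in myoblasts and 579, 583 and 657 CPM in myotubes (0.82, SE 0.04, adjusted p = 8.98e-15), and Eif3e had 168, 163 and 171 CPM and then 272, 276 and 290 CPM (0.74, SE 0.04, adjusted p = 1.24e-14). Eif3m rose by 0.55 and Eif3h by 0.32. These 4 subunits belong to the octamer formed by subunits a, c, e, f, h, k, l and m, of which 6 were higher, 1 lower (Eif3l, -0.10) and 1 not called (Eif3k, -0.04, adjusted p = 0.423).

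Outside the octamer, Eif3b, the scaffold of the module that also holds subunits g and i, fell from 333, 333 and 323 CPM to 233, 233 and 240 CPM (-0.49, SE 0.04, adjusted p = 1.85e-11). Its partners Eif3g and Eif3i each rose by 0.14, and Eif3d, the subunit able to bind the cap, rose by 0.10. The rises of Eif3a (0.11), Eif3d, Eif3g and Eif3i turned to values from -0.05 to -0.00212 with total counts, and their calls were also lost without a filter. Each lost its call without some single libraries: myoblast 1 or 2 or myotube 2 for Eif3a (adjusted p up to 0.082), myoblast 1 or 2 or myotube 2 or 3 for Eif3d (up to 0.239), myoblast 2 or myotube 3 for Eif3g (up to 0.092), and myoblast 1 or myotube 1 for Eif3i (up to 0.076). The Eif3l call was lost by the DESeq2 Wald test (adjusted p = 0.0537), the Eif3f call (0.21) with total counts (0.06, adjusted p = 0.181), and Eif3k was then called lower (-0.19, adjusted p = 0.0013). In contrast, the rises of Eif3c, Eif3e, Eif3m and Eif3h and the fall of Eif3b kept their call in all 14 refits. Eif3j2 rose by 0.34 and Eif3j1 was not called (0.31, adjusted p = 0.153), but the reads of these genes can hardly be separated, with 91.8% of Eif3j2 windows copied elsewhere. Copies also cover 40% of Eif3m, 26.2% of Eif3h and 22% of Eif3e windows, and 7.65% of Eif3c windows. A gene on the opposite strand overlaps 30% of the exonic bases of Eif3d. Per kb of transcript, Eif3h was the most abundant subunit in both groups, at 179 CPM in myoblasts and 223 CPM in myotubes.

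**Figure D4:**
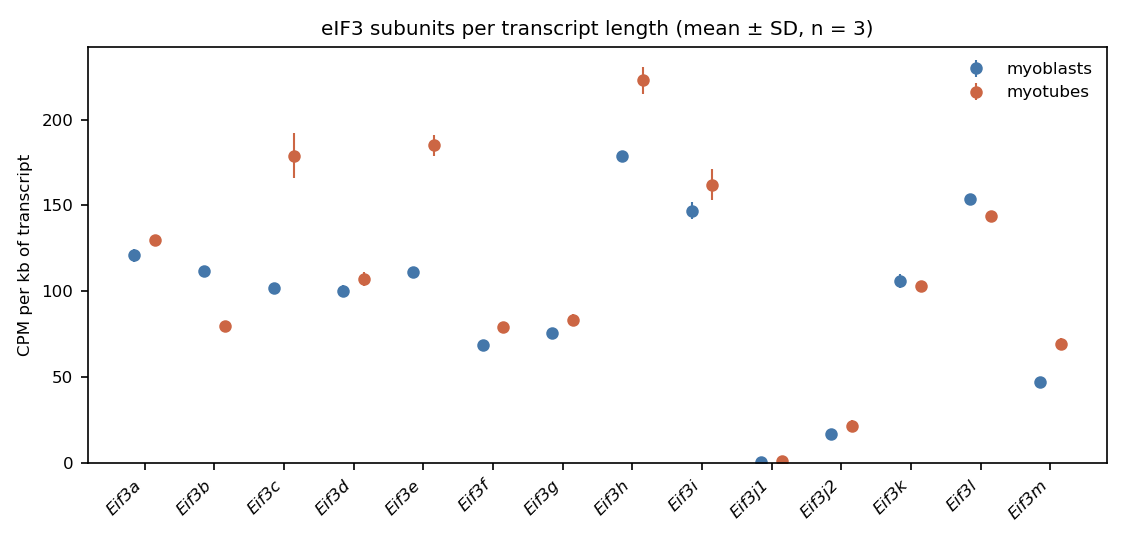
CPM per kb of transcript of the 14 eIF3 genes in myoblasts and myotubes, as mean ± SD of 3 libraries on a linear axis from 0. Eif3c and Eif3e separate most upward and Eif3b downward, while subunits such as Eif3k and Eif3d stay close between the groups.

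eIF2, the carrier of initiator tRNA, consists of 3 subunits whose transcripts changed by different amounts. Eif2s2, the beta subunit, had 102, 91.2 and 92.8 CPM in myoblasts and 185, 203 and 206 CPM in myotubes (1.05, SE 0.05, adjusted p = 8.12e-16), a rise that did not pass the test against a 2-fold change (adjusted p = 0.225). Eif2s1, the alpha subunit that carries the regulatory phosphorylation site, had 122, 126 and 129 CPM and then 114, 111 and 131 CPM, with overlapping groups and no call (-0.08, adjusted p = 0.171). It was called lower with total counts (-0.23, adjusted p = 4.85e-04), without a filter (-0.13, adjusted p = 0.0185) and without myotube replicate 3 (-0.16, adjusted p = 0.00477). Eif2s3x, the gamma subunit, rose by 0.28, which with total counts was 0.14 and no longer called (adjusted p = 0.0662). Copies cover 27.8% of Eif2s2 and 36.2% of Eif2s3x windows. Among the alternative carriers, Eif2a rose by 0.31 and Eif2d was not called (0.10, adjusted p = 0.144).

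Of the 5 subunits of eIF2B, which reloads eIF2 with GTP, 3 were higher and 0 lower, beside 40.2% and 39.2% of all tested genes. Eif2b3 rose from 29.5, 29 and 35 CPM to 48.7, 45.4 and 50.2 CPM (0.63, SE 0.08, adjusted p = 4.50e-08), with no overlap. Eif2b2 rose by 0.26 and Eif2b1 by 0.17, while Eif2b4 (0.02, adjusted p = 0.797) and Eif2b5, the catalytic subunit (-0.07, adjusted p = 0.194), were not called. These smaller values depended on the settings. With total counts the calls of Eif2b2 (0.11, adjusted p = 0.059) and Eif2b1 (0.03, adjusted p = 0.698) were lost and Eif2b5 was called lower (-0.22, adjusted p = 3.23e-04), as it was without a filter (-0.12, adjusted p = 0.0403). Eif2b1 lost its call in 5 of the 14 refits, 2 of them without myoblast replicate 3 (adjusted p = 0.052) or myotube replicate 3 (adjusted p = 0.0623).

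The eIF2 alpha kinases shut initiation down under stress, and 3 of the 4 fell, where 39.2% of all tested genes did. Eif2ak4 (GCN2, the amino acid sensor) went from 47.7, 48 and 45.6 CPM to 31.1, 31.8 and 29.6 CPM (-0.61, SE 0.07, adjusted p = 1.11e-08). Eif2ak3 (PERK, which senses stress in the endoplasmic reticulum) fell by 0.52 and Eif2ak2 (PKR, which senses double-stranded RNA) by 0.45. Eif2ak1 (the heme-regulated kinase) went the other way, from 54.7, 53.2 and 55.6 CPM to 61, 66.4 and 61.8 CPM (0.21, SE 0.06, adjusted p = 0.0021), a call lost with total counts (0.07, adjusted p = 0.309).

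Of the 7 factors of start codon selection and subunit joining, 2 were higher and 4 lower, beside 40.2% and 39.2% of all tested genes. Eif1b, the less abundant paralog of the start-codon proofreader eIF1, rose from 25.1, 25.2 and 26 CPM to 39.6, 38.4 and 37.5 CPM (0.60, SE 0.07, adjusted p = 5.94e-08). Eif1 rose from 245 ± 5.89 to 292 ± 3.52 CPM (0.26; SD, n = 3) and was the most abundant of this set per kb, at 185 and 221 CPM. Eif6, which keeps the ribosomal subunits apart, fell from 144, 144 and 137 CPM to 97.9, 96.2 and 94.5 CPM (-0.56, SE 0.05, adjusted p = 5.05e-11). Eif5, which triggers GTP hydrolysis on eIF2, fell by 0.44, Eif5b by 0.17 and Eif1ax by 0.14, the last not called by the DESeq2 Wald test (adjusted p = 0.0518) or without myotube replicate 2 (adjusted p = 0.0547). Eif1a was not called (0.06, adjusted p = 0.254). Of the Eif1 windows, 31.6% occur in transcripts of other genes, and a gene on the opposite strand overlaps 21.1% of the exonic bases of Eif5b.

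Outside these roles, Eef1e1, a scaffold component of the aminoacyl-tRNA synthetase complex, was called at 0.20 (adjusted p = 0.0286) with overlapping libraries, a call lost in 6 of the 14 refits, with 0.05 by total counts (adjusted p = 0.57) and adjusted p of 0.07 without myoblast replicate 1, 0.112 without myoblast replicate 3 and 0.299 without myotube replicate 3 (0.10). Eif1ad was not called (0.03, adjusted p = 0.643). Eif4a3l1 was at 1.22 CPM or less and Eif2c5 at 0 in every library, and neither was tested.

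Of the 70 members, 54 had a RefSeq promoter window, and 13 of these (24.1%) held CACGTG. The share was 8.09% of all 27025 genes with a window and 11.9% of the 9890 that were tested here. Of the 13 members with the hexamer, 4 were higher and 7 lower in myotubes (median -0.63), and of the 38 tested members without it, 19 were higher and 12 lower (median 0.10). The 7 lower members were Eef1aknmt, Eef2k, Eif4a1, Eif4g1, Eif4h, Eif5a and Eif5a2. The 4 higher members were Eef2, Eif1b, Eif3a and Eif3f, and Eif4e and Eif3k were not called. Across all tested genes the same split was nearly absent, with 41.2% lower among genes that hold the hexamer (median -0.02) and 39.7% among genes that do not (median 0.02). The hexamer CAGCTG, the form of E-box favoured by MyoD and myogenin, was found in 5 of 54 members (9.26%, against 18.3% of all genes with a window). Eef1a2 was among them, with its match downstream of the annotated start. These matches describe letters in a window, and whether they are bound was not tested.

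**Figure D5:**
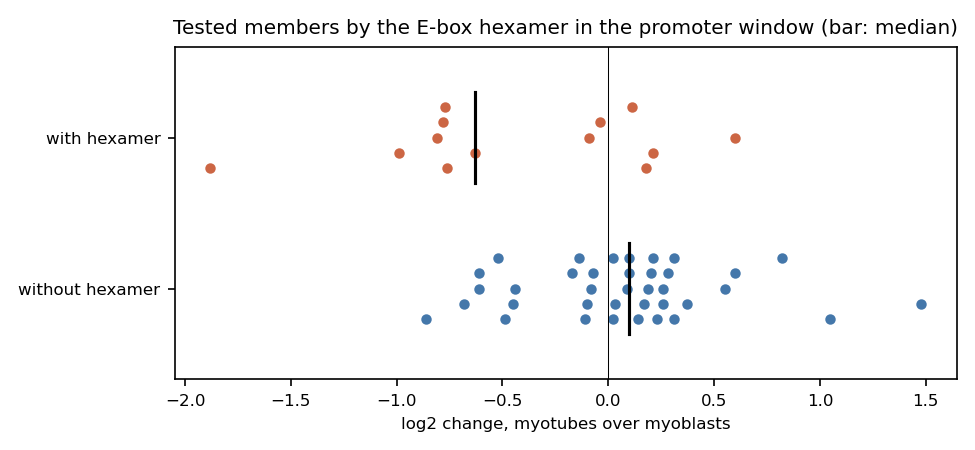
Log2 change of myotubes over myoblasts of tested members with a promoter window, split by the E-box hexamer named in the text; each point is a gene, the heights are spread for legibility, bars are medians, and Eef1a2 is left out. Points with the hexamer lie mostly at or below 0, down to Eif5a2 at -1.88, while those without it spread on both sides.

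Genes that work beside these factors were read from lists of the same pathway, whose counts stand beside 40.2% higher and 39.2% lower among all tested genes. Among 13 kinases and phosphatases upstream of initiation, 8 were higher and 2 lower (76.9% called in all, beside 79.5% of all tested genes; median 0.24). Ppp1r15a, the stress-induced subunit that directs dephosphorylation of eIF2 alpha, rose from 19 ± 1.97 to 47.8 ± 8.62 CPM (1.33, adjusted p = 6.36e-09), while its constitutive counterpart Ppp1r15b fell from 162 ± 4.46 to 124 ± 11.8 CPM (-0.39, adjusted p = 3.10e-07; SD, n = 3). Mknk2, a kinase of eIF4E, rose from 233 ± 2.62 to 479 ± 23.7 CPM (1.04, adjusted p = 8.19e-18; SD, n = 3).
Of 8 poly(A)-binding proteins and partners, 2 were higher and 3 lower (median 0.01). Pabpc1, which bridges the poly(A) tail to eIF4G, fell from 1048 ± 4.27 to 581 ± 5.98 CPM (-0.85, adjusted p = 3.12e-17; SD, n = 3). The La-related proteins Larp4 (adjusted p = 1.18e-04) and Larp1 (adjusted p = 2.68e-05) each fell by 0.23. Paip2, which displaces Pabpc1 from poly(A), rose from 105 ± 0.748 to 240 ± 4.67 CPM (1.19, adjusted p = 6.66e-19; SD, n = 3). Of 11 scanning and initiation cofactors, 4 were higher and 6 lower (median -0.14), with Cyfip1, a partner of FMRP that binds eIF4E, at -0.75, the GCN2 activator Gcn1 at -0.37 and the reinitiation factor Mcts1 at 0.55.

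Termination and recycling had 2 higher and 1 lower of 9 (median -0.00374), with Gtpbp2, a ribosome rescue factor, at 1.53, the recycling ATPase Abce1 at 0.41 and the release factor Gspt1 at -0.53. Enzymes of hypusine and diphthamide, the modifications of eIF5A and eEF2, had 2 higher and 4 lower of 9 (median 0.04). The deoxyhypusine synthase Dhps stood at 52.1 ± 2.5 and 60.3 ± 1.5 CPM (0.21) and the hydroxylase Dohh at 62 ± 3.18 and 51.5 ± 1.2 CPM (-0.27; SD, n = 3), and both were named after their values were seen. Dph2, of the diphthamide route, fell by 0.81 and Dph6 by 0.46, and Dph5 rose by 0.35. Mitochondrial translation factors had 5 higher and 4 lower of 10 (median 0.15), with the initiation factor Mtif3 at 0.94, the release factors Mtrf1 at 2.85, from 0.587 ± 0.0357 to 4.33 ± 0.8 CPM (SD, n = 3), and Mtrf1l at -0.32. Selenocysteine elongation had 1 higher and 2 lower of 6 (median 0.12), with Sephs2, which makes the selenium donor, at -1.11, the selenocysteine elongation factor Eefsec at -0.92 and Secisbp2 at 0.20.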

How the data were processed

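Polyadenylated RNA from 3 C2C12 myoblast and 3 myotube samples was extracted with TRIzol and made into libraries with a stranded mRNA kit, per the labels' protocols. Gene-level read counts, not normalized, were deposited by the authors in 1 column a library. fastp, STAR and featureCounts were used with mm10, per the submitters' processing notes; versions, strand setting and treatment of reads with several matches were not given in the sources used here. Genes with copies or antisense neighbours are therefore uncertain. Groups come from sample titles. No 2 libraries were identical. Between replicates, chi-square over degrees of freedom ran from 1.367 to 3.368.

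Counts were tested with edgeR 4.0.16 in R 4.3.3: filterByExpr (minimum count 10, minimum total 15) left 12800 genes with at least 99.86% of each library's counts, TMM factors were 1.05 to 1.055 (myoblasts) and 0.949 to 0.952 (myotubes), and groups were compared by the robust quasi-likelihood F test. SE was taken as the size of the log2 change over the root of F. glmTreat with a log2 threshold of 1 tested against a 2-fold change. P-values were adjusted by Benjamini-Hochberg over all tested genes. The biological coefficient of variation was 3.56%. The code was tested on simulated data.

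For Eef1a1 and Eef1a2 the log ratio is undefined at 0 counts, so the share of Eef1a2 was used. Ratios were compared by exact two-sided permutation over libraries, adjusted over 10 pairs. Floors are 3 counts per group, and intervals are exact (Clopper-Pearson). Lengths are of the longest coding GENCODE M21 transcript. Copies were sought as shared 50-base windows on both strands. All 70 members matched the RefSeq table of GRCm38.p6 (the assembly of mm10), the source of gene coordinates and promoter windows. Gene lists, members and named genes were chosen with earlier results of these data known. Named with values were Eef1a1, Eef1a2, members past the 2-fold test, the largest called rise and fall and the most abundant member of each role, members of the paralog pairs and, in pathway lists, the 2 largest changes in the majority direction and the largest in the other; others named are given by log2 change. Genes ranked by correlation with Eef1a2 are not given, because the libraries form 2 clusters. Alternatives were DESeq2 1.42.0 size factors and Wald test, total counts, limma-voom (limma 3.58.1), no filter, 1 CPM in 3 libraries, a replicate block, thinning to 7370169 counts, and leaving out each library.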

Additional observations from a re-analysis of the deposited data

How the results depend on the processing

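Library totals limit the low members: Eef1a2 rests on 93 counts in all, and a share of Eef1a2 under 0.00289% (limit of 3 counts) would not be detectable in myoblasts. Copies and antisense overlap limit others. Among members with at most 20% of windows copied and at most 10% of exonic bases overlapped by another gene, a selection made after seeing the data, 19 were higher and 18 lower of 45 tested, with the same 3 and 1 past the 2-fold test. The 3 include Eef1a2, which passed the count filter only through the myotube libraries. With total counts, 16 members were higher in place of 31, and 2 fell by more than 2-fold in place of 1. Replicate numbers did not pair the libraries (correlations of same-numbered deviations -0.008, 0.002 and -0.004), and with a replicate block 31 members were higher and 23 lower, as without it. Without a filter these were 24 and 26, and by the DESeq2 Wald test 28 and 21. Leaving out 1 library gave 26 to 30 higher and 22 to 24 lower, and an Eef1a2 share of 0.111 to 0.153%.

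The sign turned in the following cases. With total counts, Eef1a1 was at -0.05, Eif1a -0.09, Eif2b4 -0.13, Eif3a -0.04, Eif4g2 -0.04, Eif2d -0.04, Eif3g -0.00212, Eif3i -0.01, Eif3d -0.05, Eif1ad -0.11 and Eef1akmt2 -0.12. This scaling moved the median of all genes from 0.02 to -0.13. Without a filter, Eif2b4 was at -0.03, Eif1ad -0.01 and Eef1akmt2 -0.02, and with thinned counts Eif2b4 was at -0.02. Leaving out 1 library, Eif2b4 ran from -0.01 (without myotube replicate 3) to 0.07, Eif1ad from -0.01 (without myoblast replicate 3) to 0.08, Eef1akmt2 from -0.11 (without myotube replicate 2) to 0.14, and the log2 ratio difference of Eif3j1 to Eif3j2 from -0.14 to 0.13 (without myotube replicate 2). The causes were not tested.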
